A study of Mus musculus with 66 samples.

Results

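The genes described here are 10 chaperones and disulfide isomerases of the endoplasmic reticulum (ER): Hspa5, Hsp90b1, Calr, Pdia3, Pdia4, Pdia6, Dnajb9, Dnajb11, Sdf2l1 and Hyou1. They were chosen by name, and all 10 were found among the 22489 genes of the mRNA-Seq table. Their values are FPKM (sequenced fragments scaled to the length of the transcript and to the mapped fragments of the library) in C2C12 cells, a mouse myoblast line that fuses into myotubes when serum is withdrawn. The study asked how forced expression of histone H3 variants bears on transcription before and after this differentiation. Untransfected C2C12 cells (WT) and 9 lines were sequenced. Each line carried 1 doxycycline-inducible transgene, which coded for an H3 protein with GFP at its N terminus and had been integrated by a transposon. These lines were selected with G418 and doxycycline and sorted for GFP, and they keep their own H3 genes, as WT does. The proteins were H3.1, H3.2 and H3t, which are of the H3.1/H3.2 type by sequence, and, of the H3.3 type, H3.3 itself with H3mm7, H3mm11, H3mm12, H3mm13 and H3mm16. Growing cells were kept in 20% fetal bovine serum, and differentiated cells were harvested 48 h after confluent cultures had been moved to 2% horse serum. The 10 growth and 10 differentiated libraries hold 1 library for each line and state. Each variant was present in 1 line, which the methods call a stable clone, so that a variant and its line cannot be told apart, and the spread over lines is the only error available.

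Proteins that enter the ER fold there with the help of chaperones that bind unfolded stretches, and of disulfide isomerases that form and exchange bonds between cysteines. When unfolded protein accumulates, the sensors ATF6, IRE1 and PERK start the unfolded protein response, in which the factors ATF6 and XBP1 raise the transcription of these same chaperones. Myoblasts are known to engage parts of this response while they differentiate.

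The best known DNA element of this response is the ER stress response element (ERSE), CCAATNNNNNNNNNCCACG. It was looked for on both strands in the RefSeq promoters of the mouse genome (GRCm38.p6), which run from 250 bases before to 50 bases after the start of a gene. Of 32851 promoters, 39 held an ERSE, or 0.119%. An entry was present for 9 of the 10 genes, all but Hyou1, and 4 of these 9 held the element: Hspa5, Hsp90b1, Calr and Pdia6. Hsp90b1 held it once on each strand. The shorter ERSE-II, ATTGGNCCACG, was in 12 promoters (0.0365%) and among the 9 only in Dnajb11, in the transcribed bases. TGACGTGG, a site of the XBP1 type, was in 222 promoters (0.676%) and in none of the 9. Its variant TGACGTGA was in 145 (0.441%) and among the 9 only in Hspa5. These elements did not overlap one another in the 9 promoters, and none of them was found in Pdia3, Pdia4, Dnajb9 or Sdf2l1. Only exact matches were counted, so a site that departs from these letters would be missed. The shares are of promoters, not of genes, and were not tested. The 7 matches are printed because they differ among genes whose values are set side by side later. Each is written 5′ to 3′ on the strand of its gene with the element in capitals, so that an element on the other strand reads reversed, from CGTGG to ATTGG.
Hspa5, chr2:34772020-34772048, plus strand, bases -70 to -42 from the start: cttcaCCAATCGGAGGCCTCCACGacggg
Hspa5, chr2:34771926-34771947, plus strand, bases -164 to -143 from the start: gtagcaaTGACGTGAgttgcgg
Hsp90b1, chr10:86705633-86705661, minus strand, bases -217 to -189 from the start: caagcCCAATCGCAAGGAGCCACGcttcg
Hsp90b1, chr10:86705528-86705556, minus strand, bases -112 to -84 from the start: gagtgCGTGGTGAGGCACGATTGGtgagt
Calr, chr8:84847070-84847098, minus strand, bases -167 to -139 from the start: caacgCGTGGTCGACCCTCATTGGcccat
Pdia6, chr12:17266486-17266514, plus strand, bases -103 to -75 from the start: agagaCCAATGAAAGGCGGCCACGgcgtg
Dnajb11, chr16:22857846-22857869, plus strand, bases 1 to 24 of the transcript: gcggcgATTGGCCCACGcctggct

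The libraries carried the state of their labels. All 8 muscle markers tested were called higher in differentiated cells (median log2 difference 7.38) and all 6 proliferation markers lower (median -4.39). Adipocyte markers summed to 9.06 to 19.2 FPKM and osteoblast markers to 2.70 to 7.56 FPKM in differentiated cells, with Adipoq, Plin1, Sp7 and Ibsp below 1 FPKM in all 20 libraries. Most of these sums came from Pparg (6.77 to 17.5 FPKM) and Runx2 (2.70 to 5.17 FPKM). Bglap was at 1.78 FPKM in differentiated H3.3 and 2.37 in differentiated H3mm11 cells. In growth the sums were higher, at 15.3 to 35.0 FPKM and 8.31 to 14.8 FPKM. The WT libraries stood apart: Gapdh, at 783 FPKM or more in the 18 GFP-H3 libraries, was at 0.361 and 0.263 FPKM in WT, while the 10 ER genes were not near 0 there. Values of WT are therefore given separately where they matter, and the tests were repeated without WT. Read numbers were not recovered from FPKM, so the depth is unknown and no counting error is attached to any value. In a culture, fewer cells of a kind and less RNA per cell cannot be told apart.

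In growing cells, the 10 genes were expressed at closely similar levels in the 9 GFP-H3 lines, and in differentiated cells at widely different ones. FPKM is a value per length, so levels can be set side by side between genes. The growth medians over 10 lines were 398 FPKM for Calr, 387 for Hsp90b1, 300 for Hspa5, 218 for Pdia3, 161 for Pdia6, 67.2 for Pdia4, 58.9 for Dnajb11, 29.9 for Sdf2l1, 28.5 for Hyou1 and 6.84 for Dnajb9. Between the lowest and the highest GFP-H3 line, growth levels differed from 1.20-fold for Pdia6 to 1.68-fold for Dnajb9. In differentiated cells the same 9 lines differed from 6.06-fold for Dnajb11 to 45.7-fold for Sdf2l1. The SD over the 9 lines on the log2(FPKM + 1) scale had a median over the 10 genes of 0.167 in growth and 1.39 in differentiated cells. Over all 10954 genes with a mean of at least 1 FPKM the medians were 0.207 and 0.308. The SD was larger in differentiated cells for 10 of 10 genes, and also for 79.1% of all genes, so this direction was the usual one. An SD above 1 in differentiated cells was found for 9 of the 10 (all but Dnajb11, 0.904) and for 3.0% of all genes.

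**Figure D1:**
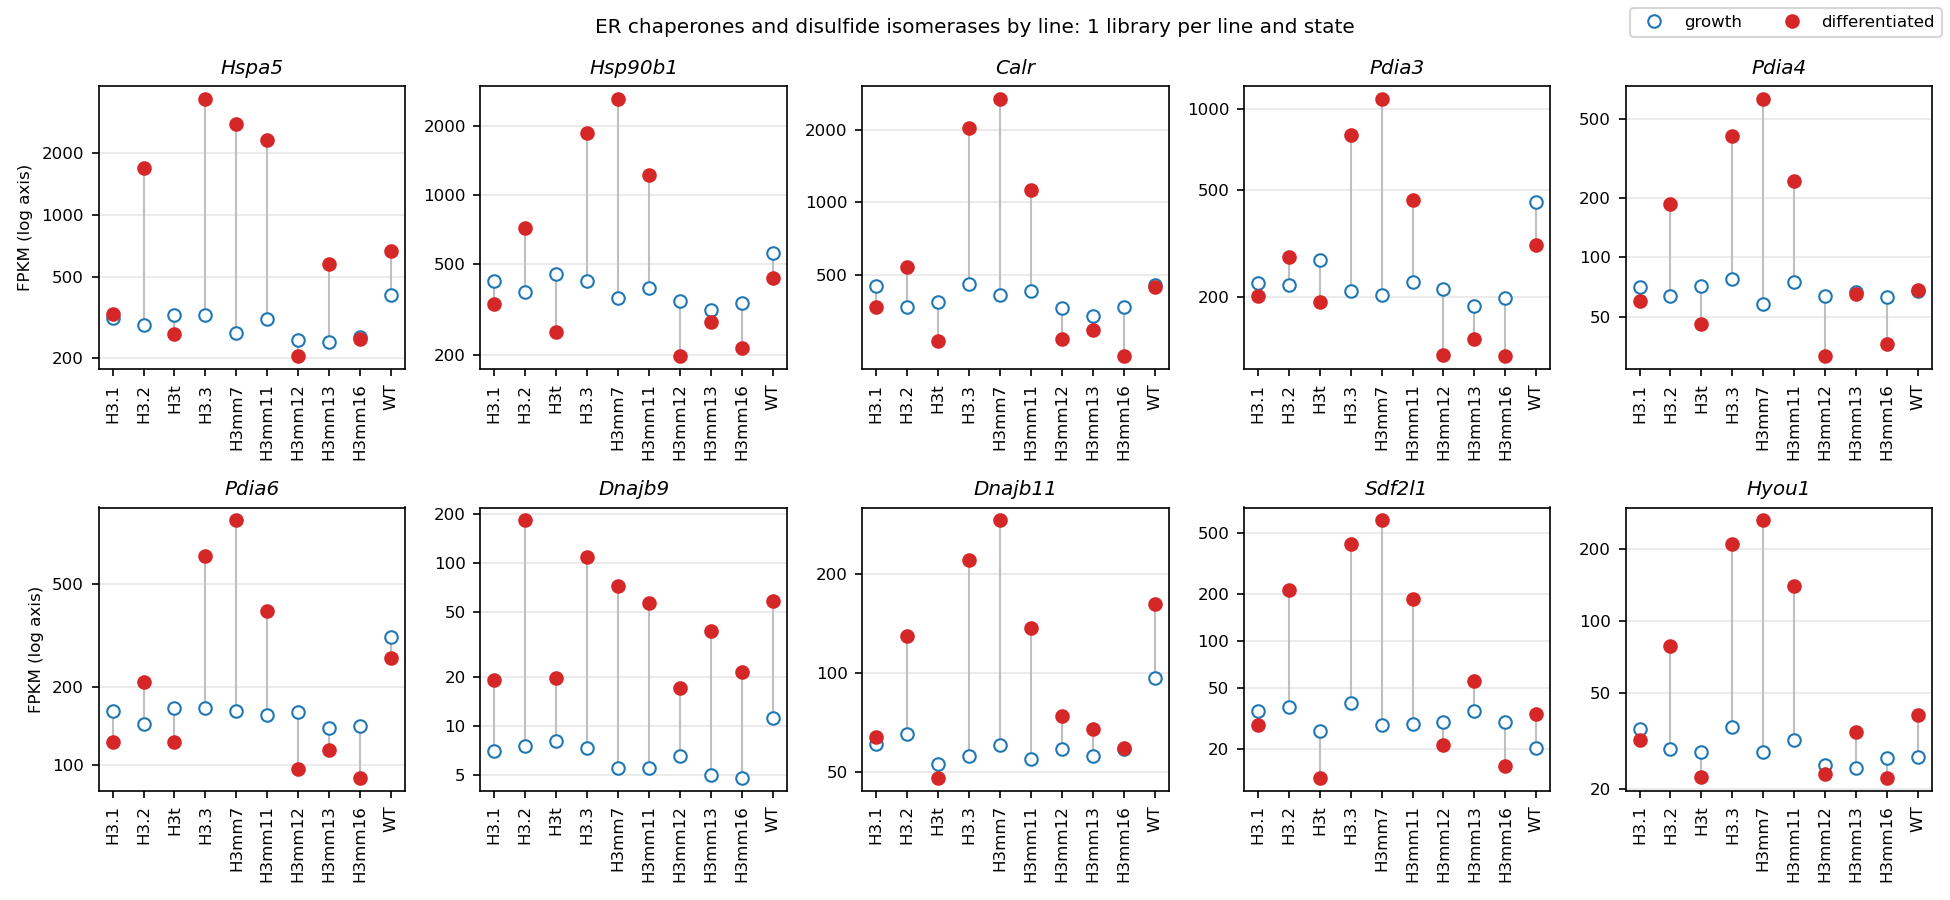
FPKM (log axis) of the 10 genes in each of 9 GFP-H3 lines and WT, in growth (open points) and differentiated cells (filled points), with 1 library per point and lines joining both states of a line. Growth points lie nearly level over the GFP-H3 lines, while the differentiated points of H3.3, H3mm7 and H3mm11 stand above all 10 growth points for every gene, and Dnajb9 is higher after differentiation in all 10 lines.

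Hspa5, Hsp90b1 and Hyou1 are the large ATP-driven chaperones of the ER. Hspa5 (BiP; chr2:34627490-34632051, plus strand; mm9 here and for the genes that follow) is the Hsp70 that holds the stress sensors inactive and binds nascent chains. It had 240 to 406 FPKM in growing cells (median 300, WT highest). In differentiated cells it had 3688 FPKM in H3.3, 2780 in H3mm7, 2330 in H3mm11 and 1687 in H3.2. The other differentiated libraries were far below these, with 665 in WT, 576 in H3mm13, 331 in H3.1, 263 in H3t, 247 in H3mm16 and 205 in H3mm12. Its level after differentiation was thus from 0.810-fold (H3t) to 11.4-fold (H3.3) of that in growth, and the states overlapped. Hsp90b1 (GRP94; chr10:86152954-86168254, minus strand), the ER form of Hsp90, had 316 to 556 FPKM in growth and 198 to 2632 FPKM after differentiation (medians 387 and 384). It was highest in H3mm7 (2632), H3.3 (1874), H3mm11 (1222) and H3.2 (716), and in the other 6 lines it was lower after differentiation than before. Its locus shares bases with a lincRNA on the opposite strand and with a processed transcript on its own, and whether the counting used the strand is not stated. Hyou1 (chr9:44187573-44200452, plus strand), a larger Hsp70 relative that exchanges the nucleotide of Hspa5, had 24.4 to 36.2 FPKM in growth and 22.2 to 263 FPKM after differentiation (medians 28.5 and 37.5). It followed the same order at the top, with 263 in H3mm7, 209 in H3.3, 140 in H3mm11 and 78.7 in H3.2.

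Calr (calreticulin; chr8:87365749-87370833, minus strand) binds sugar chains of glycoproteins and calcium. It had 335 to 457 FPKM in growth and 228 to 2707 FPKM after differentiation, with medians of 398 and 404. H3mm7 (2707), H3.3 (2049) and H3mm11 (1123) stood above all growth libraries, and H3.2 followed with 536. The other 6 lines had 228 to 442 FPKM and were each below their own growth level.

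Pdia3, Pdia4 and Pdia6 are disulfide isomerases with thioredoxin folds. Pdia3 (ERp57; chr2:121239511-121264423, plus strand), the partner of the lectin chaperones, had 186 to 274 FPKM in the growing GFP-H3 lines and 450 in growing WT cells. After differentiation it had 1092 FPKM in H3mm7, 804 in H3.3 and 458 in H3mm11. The other 7 libraries lay between 121 (H3mm16) and 312 FPKM (WT). Pdia6 (P5; chr12:17273351-17291576, plus strand) showed the same picture, with 139 to 166 FPKM in the growing GFP-H3 lines and 310 in WT, and after differentiation with 876 FPKM in H3mm7, 636 in H3.3, 393 in H3mm11 and 89.6 to 258 in the other 7. The loci of Pdia3 and Pdia6 share 807 and 50 bases with Catsper2 and Atp6v1c2 on the opposite strand. Pdia4 (ERp72; chr6:47746141-47763511, minus strand) was the isomerase with the widest range. It had 58.3 to 77.5 FPKM in growth, and after differentiation 632 FPKM in H3mm7, 408 in H3.3, 244 in H3mm11 and 186 in H3.2, against 31.6 to 68.6 in the other 6.

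Dnajb9, Dnajb11 and Sdf2l1 serve Hspa5: Dnajb9 and Dnajb11 are J-domain proteins that stimulate its ATPase, and Sdf2l1 forms a complex with Dnajb11. Dnajb9 (ERdj4; chr12:45306884-45311055, minus strand) was the least abundant of the 10 in growth, with 4.85 to 11.2 FPKM (median 6.84), and had 17.3 to 182 FPKM after differentiation (median 47.2). The states did not overlap. Its order differed from that of the other genes: H3.2 was highest with 182 FPKM, before H3.3 (108), H3mm7 (72.1), WT (58.1), H3mm11 (56.4) and H3mm13 (38.1), and the lowest 4 had 17.3 to 21.6. Dnajb11 (ERdj3; chr16:22857918-22879707, plus strand) had 52.7 to 65.1 FPKM in the growing GFP-H3 lines and 96.3 in WT. After differentiation it had 292 FPKM in H3mm7, 221 in H3.3, 163 in WT, 137 in H3mm11 and 130 in H3.2, and the other 5 had 48.1 to 74.2. Sdf2l1 (chr16:17130231-17132476, minus strand) had the largest range of all: from 20.5 to 39.7 FPKM in growth (WT lowest) it went to 600.1 FPKM in H3mm7, 421 in H3.3, 212 in H3.2 and 185 in H3mm11, and to only 13.1 in H3t and 15.7 in H3mm16.

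With 1 library per line and state the change of a line has no replicate check, so the genes were set beside all 10954 genes of the same line. The fold used was 1 or more on the log2(FPKM + 1) scale. In the H3.3, H3mm7 and H3mm11 lines 10 of 10 ER genes passed it upward, against 10.8%, 8.83% and 9.54% of all genes. The study had grouped these lines from the same libraries, by a principal component whose positive scores it read as higher expression of ER-stress-related genes. Since the ER genes were chosen with earlier results of these data known, these shares are a description and no independent support. The median fold of the 10 genes was 8.33 in H3mm7, 4.87 in H3.3 and 3.17 in H3mm11. In the H3.2 line 5 of 10 passed (Hspa5, Pdia4, Dnajb9, Sdf2l1 and Hyou1), against 11.9% of all genes, and all 10 were above their growth level. In the H3mm13 line 2 of 10 passed (Hspa5 and Dnajb9), against 10.9%. In WT, H3.1, H3t, H3mm12 and H3mm16 only Dnajb9 passed, against 10.4%, 9.49%, 11.1%, 11.3% and 11.5% of all genes, which is a share close to the background. The number of genes below their growth level there was 4 in WT, 7 in H3.1, 9 in H3t, 8 in H3mm12 and 8 in H3mm16. None fell by 1 or more on the log2(FPKM + 1) scale. Pdia4 in H3mm12 (0.495-fold in FPKM, -0.993 on that scale) and Sdf2l1 in H3t (0.499-fold, -0.951) came closest. The summed FPKM of the 10 genes made up 1.45%, 1.34% and 0.838% of all FPKM in differentiated H3.3, H3mm7 and H3mm11 cells, compared with 0.217% to 0.290% in the growing GFP-H3 lines.

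**Figure D2:**
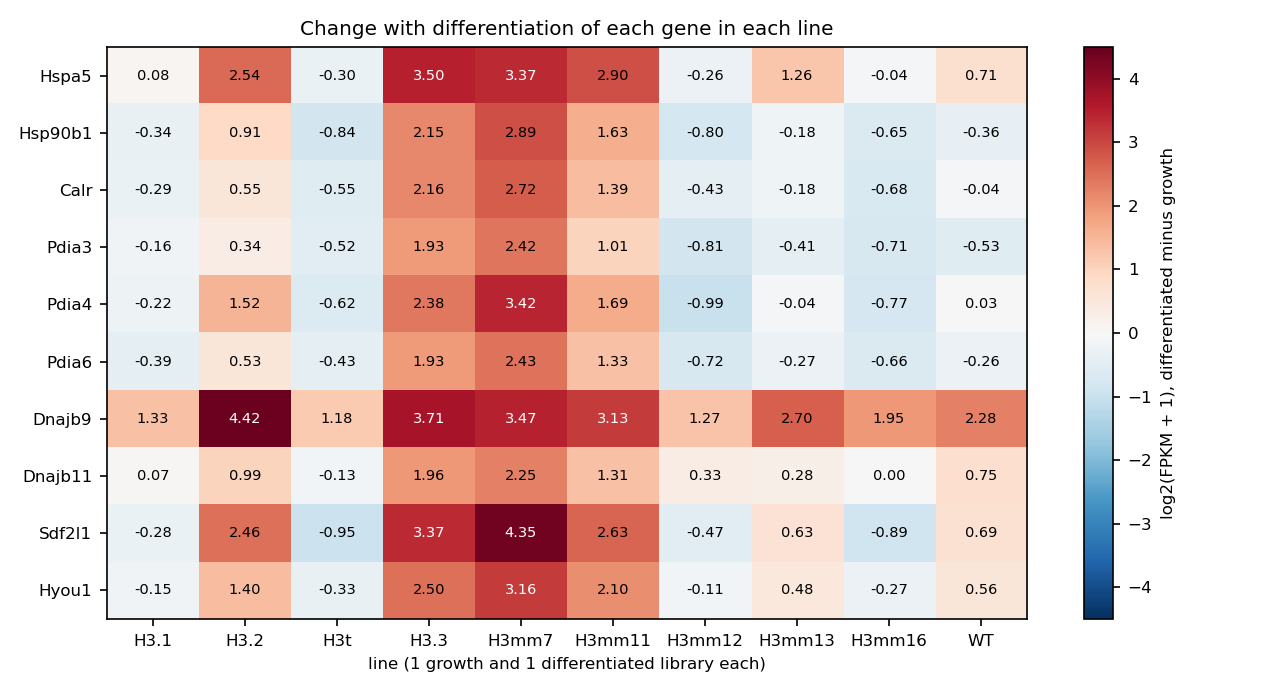
Difference of log2(FPKM + 1), differentiated minus growth, for each gene (vertical) and line (horizontal), with the value in each cell and 1 library per line and state. The columns of H3.3, H3mm7 and H3mm11 hold values of 1.01 and more for all 10 genes, H3.2 is intermediate, and the Dnajb9 row is above 1 in all 10 lines.

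The order of the differentiated libraries was largely shared. H3.3, H3mm7, H3mm11 and H3.2 were the top 4 for 6 of the 10 genes. The exceptions were Pdia3, Pdia6, Dnajb9 and Dnajb11, where WT took a place among them. H3mm7 was highest for 8 genes, all but Hspa5 (H3.3) and Dnajb9 (H3.2), and for 18.9% of all 10954 genes. Its summed FPKM over all genes was also the largest of the differentiated libraries (894105, next H3mm12 with 783470). As a share of summed FPKM, the 10 genes were higher in H3.3 (1.45%) than in H3mm7 (1.34%). Among the 9 GFP-H3 lines alone, with WT left out, these lines were the top 4 for 10 of 10 genes. The step from the fourth to the fifth of the 9 was then 3.35-fold for Sdf2l1, 2.93-fold for Hspa5, 2.85-fold for Pdia4, 2.28-fold for Hyou1 and 2.14-fold for Hsp90b1. It was 1.75-fold for Dnajb11, 1.70-fold for Pdia6 and 1.47-fold for Calr, each larger than the range of the same gene over the growing GFP-H3 lines (1.23-fold, 1.20-fold and 1.37-fold). For Dnajb9 (1.48-fold) and Pdia3 (1.39-fold) it was smaller than that range (1.68-fold and 1.48-fold). The range is that of growing lines, and with 1 library per line the spread between differentiated cultures of a line is unknown. The break after the fourth line was read from these same values. Each gene was compared with the mean of the other 9 over the 9 differentiated GFP-H3 libraries, as a description that shares its libraries. Pearson's r was 0.953 to 0.995, except for Dnajb9 (0.797).

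The summed muscle markers did not order the lines in the same way. They were 4797 FPKM in H3mm11, 6411 in H3mm7 and 6584 in H3.3, but also 5271 in H3.1 and 5856 in H3t, where the ER genes were low. They were 11987 in H3.2 and 18097 to 24657 in H3mm16, H3mm13, WT and H3mm12. The median change of these markers on the log2(FPKM + 1) scale gave another order. It was lowest in H3mm7 (5.35), H3mm11 (5.53) and H3.3 (5.93). In the other lines it ran from 6.86 in H3t to 9.35 in WT, with H3.2 at 7.97. Proliferation markers summed to 5.49 to 40.2 FPKM in the differentiated H3.2, H3.3, H3mm7 and H3mm11 cells and to 6.21 to 111 FPKM in the other 6, against 640 to 857 in growth. Whether the extent of differentiation plays a part in the levels of the ER genes was not tested.

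Differentiated and growing cells were compared over the 10 lines with limma on log2(FPKM + 1), with Benjamini-Hochberg adjustment over 10954 genes. This fit did not pair the libraries of a line. A gene counted as called where its adjusted p was below 0.05 and its difference was 1 or more in size. Of the 10 genes, 2 were called higher and 0 lower, while 8.87% of all genes were called higher and 8.41% lower. Dnajb9 was higher by 2.54 (SE 0.35, limma adjusted p = 2.7e-06, 10 of 10 lines), and its states did not overlap, which held in this direction for 8.85% of all genes. Hspa5 was higher by 1.38 (SE 0.48, limma adjusted p = 0.0170, 7 of 10 lines). Dnajb11 differed by 0.78 (SE 0.27, limma adjusted p = 0.0176, 9 of 10 lines), which is past the p but below the fold. Hyou1 (0.93, limma adjusted p = 0.0529) and Sdf2l1 (1.16, limma adjusted p = 0.104) were not called. The remaining 5, namely Pdia4, Calr, Hsp90b1, Pdia6 and Pdia3, had differences of 0.26 to 0.64 with limma adjusted p of 0.231 to 0.548, and 95% intervals that ran from below 0 to between 0.98 and 1.57. The median difference of the 10 genes was 0.71, and that of all genes 0.038. The differences of these 5 were lowest without the H3mm7 line: 0.33 for Pdia4, 0.21 for Calr, 0.17 for Hsp90b1, 0.12 for Pdia6 and 0.016 for Pdia3. Without H3.3 they were 0.45, 0.28, 0.25, 0.17 and 0.07 in the same order. Leaving out H3mm11 or H3.2 also lowered all 5, by less. Without WT the differences were 2.57 for Dnajb9 and 1.45 for Hspa5, both called. Hyou1 was also called when H3.1, H3t, H3mm12 or H3mm16 was left out, which gave 3 of 10.

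The next question was whether the ER genes depended on the type of the H3 protein. Among differentiated cells, 6 H3.3-type lines were compared with 3 H3.1/H3.2-type lines. None of the 10 genes was called by limma, none had an unadjusted p below 0.05, and 0.00913% of all genes (1 of 10954) were called either way. All 10 differences were above 0, from 0.05 for Dnajb9 to 1.16 for Sdf2l1 (median 0.73, all genes 0.006), with limma adjusted p of 0.637 to 0.985. Their intervals were wide: that of Hspa5 ran from -1.46 to 3.13, that of Calr from -0.91 to 2.72 and that of Sdf2l1 from -1.64 to 3.96. Both types were mixed inside. Hspa5 had a mean of 9.88 ± 1.85 (SD of log2(FPKM + 1), n = 6) in the H3.3 type, which holds the 3 highest lines and the lines H3mm12 and H3mm16 at the bottom, and of 9.05 ± 1.46 (n = 3) in the H3.1/H3.2 type, which holds H3.2. The sizes also depended on single lines. The difference of Sdf2l1 ran from 0.33 without H3t to 2.29 without H3.2, that of Hspa5 from 0.33 without H3t to 1.67 without H3.2, and that of Pdia4 from 0.24 without H3mm7 to 1.29 without H3.2. The difference of Dnajb9 changed sign when any of H3.1, H3t, H3.3, H3mm7 or H3mm11 was left out, with values of -0.02 to -0.48.

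Among growing cells the same comparison also called none of the 10 genes, while 0.539% of all genes were called. The differences were small, from -0.34 to -0.03 (median -0.08, all genes -0.011), and their intervals excluded a change of 1 in either direction for all 10. Dnajb9 had an unadjusted p below 0.05 (0.0186) with a difference of -0.34 (SE 0.12, limma adjusted p = 0.190). Of the 8 muscle markers, 3 were called higher in the growing H3.3-type lines (Acta1, Myog and Tnnc2), and their part in the values of the ER genes was not tested. The test of whether the change with differentiation differed between the types again called none of the 10, with 0.0274% of all genes called and no unadjusted p below 0.05. The differences were 0.40 to 1.20 (median 0.85, all genes 0.024), with limma adjusted p of 0.513 to 0.827. They too moved when a line was left out, from 0.52 without H3t to 2.22 without H3.2 for Sdf2l1 and from 0.48 to 1.90 without the same lines for Hspa5. At this number of lines a difference between the types of up to 1.84 (Dnajb11) to 3.94 (Sdf2l1) in the change remained inside the intervals.

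**Figure D3:**
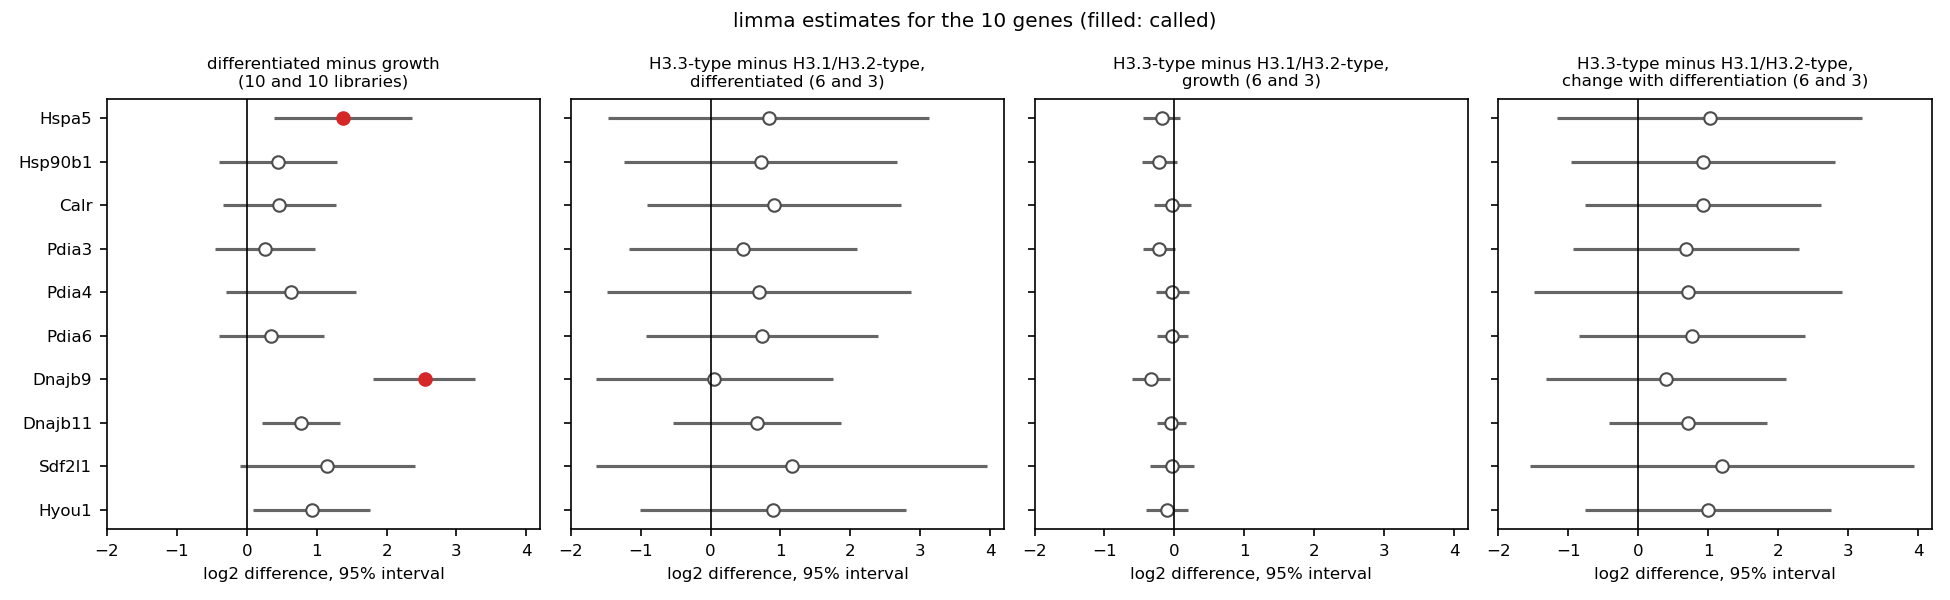
limma log2 differences (points) with 95% intervals (bars) for the 10 genes in 4 comparisons, with filled points for called genes. Dnajb9 and Hspa5 are called for differentiated minus growth, and in both panels of the H3 types that involve differentiated cells every interval spans 0.

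Ratios between genes within a library do not depend on how the library was scaled. The ratio of Hspa5 to Hsp90b1 was nearly constant in growth, at 0.709 to 0.787 in all 10 lines, WT included. After differentiation it was higher in 10 of 10 lines, and it fell into different ranges: 2.36 in H3.2, 2.06 in H3mm13, 1.97 in H3.3, 1.91 in H3mm11 and 1.54 in WT, against 0.989 to 1.15 in H3.1, H3mm12, H3t, H3mm7 and H3mm16. H3mm7 and H3.3 thus differed although both had high levels of both genes. H3mm13 had a high ratio at a modest level of Hspa5, since its Hspa5 was 2.40-fold and its Hsp90b1 0.885-fold of growth. The ratio of Dnajb9 to Hspa5 was 0.0179 to 0.0275 in growth and also higher after differentiation in 10 of 10 lines. It stayed low in H3.3 (0.0292), H3mm7 (0.0259) and H3mm11 (0.0242), and was 0.0583 to 0.108 in the other 7, with H3.2 highest. Among the isomerases, the ratio of Pdia4 to Pdia3 was 0.260 to 0.369 in the growing GFP-H3 lines. After differentiation it was 0.466 to 0.657 in H3.2, H3mm7, H3mm11, H3.3 and H3mm13, and 0.241 to 0.302 in the other 4 GFP-H3 lines. The ratio of Sdf2l1 to its partner Dnajb11 was 0.473 to 0.708 in the growing GFP-H3 lines. It reached 2.06 in differentiated H3mm7, 1.91 in H3.3, 1.63 in H3.2 and 1.35 in H3mm11, and it was 0.266 to 0.288 in H3mm16, H3t and H3mm12. The 10 genes therefore did not move by a common factor.

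**Figure D4:**
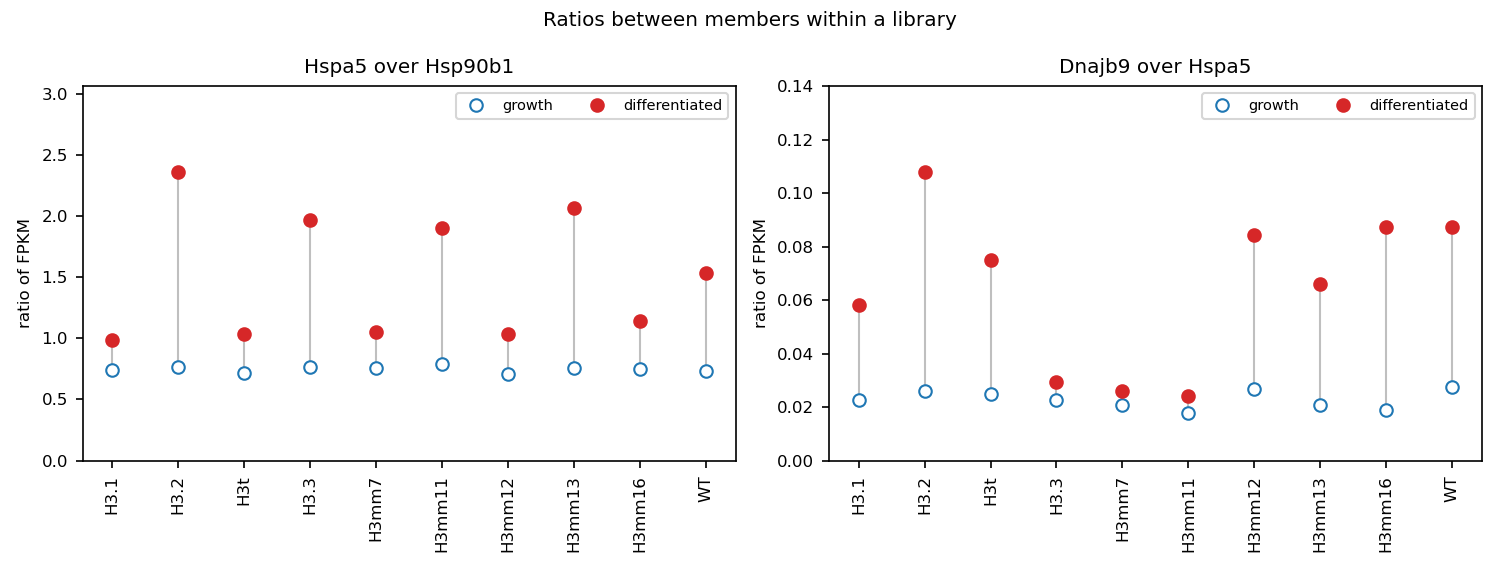
Ratio of FPKM within a library for Hspa5 over Hsp90b1 (left) and Dnajb9 over Hspa5 (right) in 10 lines, in growth (open) and differentiated cells (filled). The growth ratios are level, and the differentiated ratios separate H3mm7 from H3.3 and H3mm11 on the left but not on the right.

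Other genes of the ER and of other compartments were counted in the same comparison of differentiated with growing cells. Of 26 other ER folding factors, 1 was called higher and 1 lower (median 0.28): Sil1, a nucleotide exchange factor of Hspa5, by 1.38 (SE 0.11, limma adjusted p = 9.6e-10), and Fkbp10, a prolyl isomerase for collagen, by -1.04 (SE 0.18, limma adjusted p = 3.1e-05), which was -0.96 and short of the fold without H3mm11. Of 14 translocon and signal peptidase genes none was called by limma (median 0.10), and 3 had an unadjusted p below 0.05, as did 62.2% of all genes. Of 13 tested genes of the ATF6/XBP1 branch and of ER-associated degradation, 6 were called higher (median 0.98). The largest of them were Herpud1, a membrane protein of the degradation complex, by 2.49 (SE 0.36, limma adjusted p = 4.2e-06), and the sensor Atf6 by 1.58 (SE 0.13, limma adjusted p = 8.1e-10). Of 10 genes of the PERK branch, 8 were called higher (median 2.25), with Trib3, a pseudokinase induced by this branch, by 3.03 (SE 0.51, limma adjusted p = 3.6e-05) and the factor Atf3 by 2.62 (SE 0.41, limma adjusted p = 1.5e-05). Chaperones outside the ER had other values. Of 15 cytosolic ones, 1 was called lower, Hsp90aa1 by -1.02 (SE 0.35, limma adjusted p = 0.0164), with a median of -0.37, and its difference was short of the fold without WT (-0.99), H3t or H3.2 (both -0.97). Of 6 mitochondrial ones 1 was called lower, Hspd1 by -1.08 (SE 0.28, limma adjusted p = 0.00264), with a median of 0.04, and it too was short of the fold without H3t (-0.996). The background of 8.87% higher and 8.41% lower applies to these lists too. Between the types of H3, none of the 84 tested genes of these 6 lists was called by limma in differentiated cells, in growth or in the change, where 8, 7 and 21 had an unadjusted p below 0.05. Over all genes this share was 12.3%, 18% and 16.4%. Most of the 21 genes for the change were cytosolic or mitochondrial chaperones, whose lists had median differences of 0.50 and 0.67 there. Among them were Hsph1 (1.03, limma unadjusted p = 0.00042, adjusted p = 0.096) and Hspe1 (0.94, limma unadjusted p = 0.0021, adjusted p = 0.122). Of these chaperones only Bag3 had a difference below 0 (-0.32).

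The lists also differed between lines. The other ER folding factors had a median change of 1.09 in H3mm7, 0.95 in H3.3 and 0.63 in H3mm11, and -0.30 to 0.14 in the other 7. That of translocon and signal peptidase genes was 1.01, 0.74 and 0.41 in these 3 lines, and -0.37 to 0.17 in the others. The PERK branch had another order: its median change was 2.74 to 3.3 in H3.2, H3.3, H3mm7 and H3mm11, 2.36 in H3mm13 and 2.03 in H3mm16, and 0.51 to 1.07 in H3mm12, H3t, H3.1 and WT. H3mm16 therefore had a high change of the PERK genes beside Hspa5 at 0.971-fold and Sdf2l1 at 0.526-fold of growth. The cytosolic chaperones had median changes of -0.82 to -0.09 in all 10 lines, with H3.3, H3mm7 and H3mm11 (-0.44 to -0.19) inside the range of the others. The mitochondrial chaperones had median changes of 0.45 in H3mm7, 0.29 in H3.3 and 0.16 in H3mm11, and -0.26 to 0.05 in the other 7. The same 3 lines were thus highest for a list outside the ER too, with smaller changes.

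**Figure D5:**
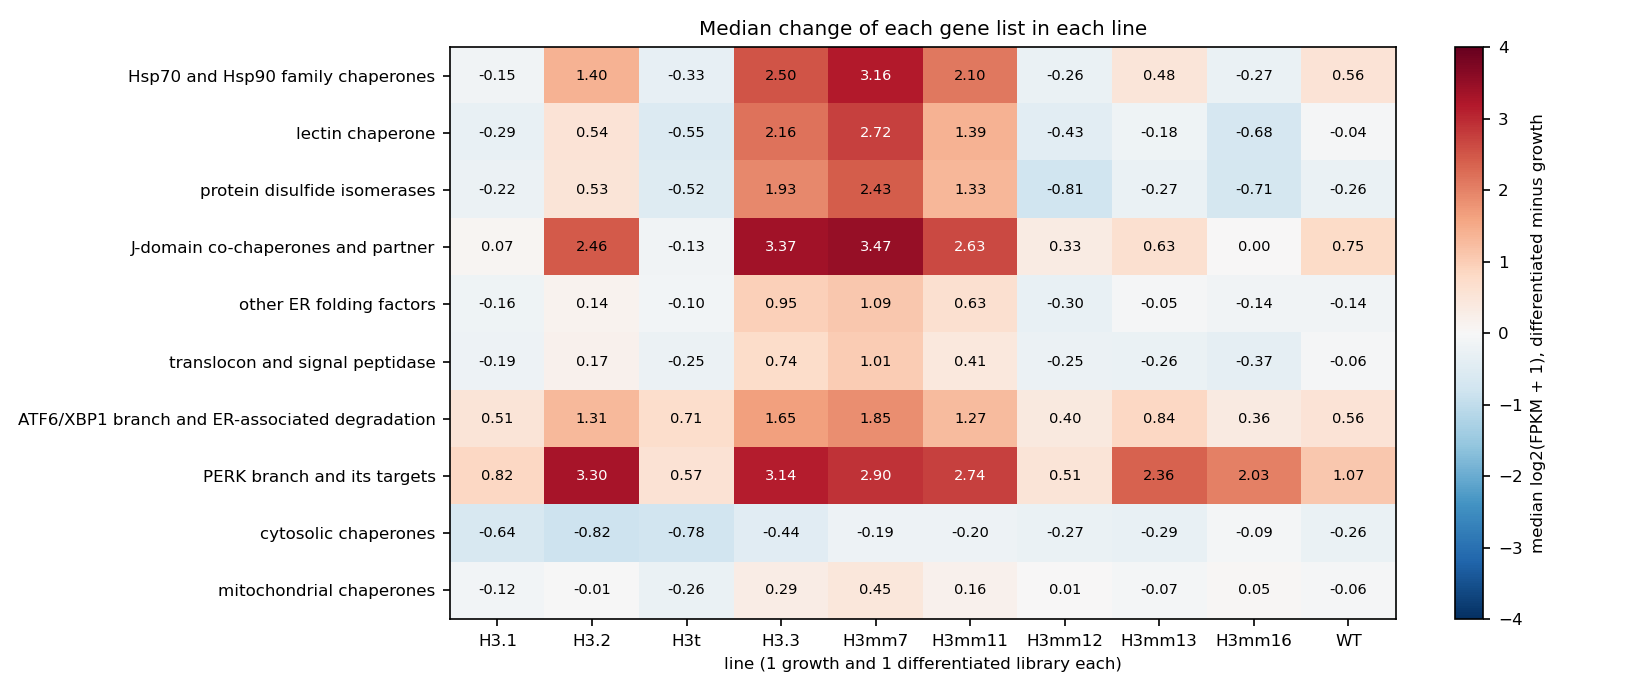
Median difference of log2(FPKM + 1), differentiated minus growth, over the genes of each list (vertical) in each line (horizontal), with 1 library per line and state. The lists of chaperones, isomerases, other ER folding factors and translocon genes are highest in H3.3, H3mm7 and H3mm11, the PERK list is also at 2.03 to 3.3 in H3.2, H3mm13 and H3mm16, and cytosolic chaperones are below 0 in every line. Mitochondrial chaperones are also highest in H3.3, H3mm7 and H3mm11, at 0.16 to 0.45.

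Finally, 10868 other genes were ranked by how closely they followed the mean of the 10 ER genes over the 9 differentiated GFP-H3 libraries. The 8 closest were Sel1l (r = 0.993), Manf (0.991), Xbp1 (0.990), Wars (0.984), Creld2 (0.983), Dnajc3 (0.983), C87436 (0.981) and Alg12 (0.980). These are ranks over 9 points that share their libraries, with no test. Sel1l is the adaptor of a ubiquitin ligase in ER-associated degradation, and had 24.3 FPKM in H3mm12 and 123 FPKM in H3.3, against 15.8 to 20.2 FPKM in the growing GFP-H3 lines. Manf, a secreted ER protein, had 41.9 FPKM in H3mm16 and 463 in H3mm7. Xbp1, the factor made by IRE1 splicing, had 43.6 FPKM in H3mm16 and 165 in H3.3. Creld2, an ER protein of the isomerase kind, had 33.0 FPKM in H3t and 572 in H3mm7, and Dnajc3, a J-domain partner of Hspa5, had 17.3 FPKM in H3mm16 and 114 in H3mm7. Wars, a tRNA synthetase of the cytosol, had 34.5 FPKM in H3mm12 and 225 in H3mm7, and Alg12, a mannosyltransferase that builds the sugar chain for glycoproteins, had 6.75 FPKM in H3mm12 and 28.2 in H3mm7. C87436 spanned 5.84 to 9.66 FPKM only.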

How the data were processed

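mRNA-Seq of C2C12 cells was used, with 20 libraries, 1 for each of 10 lines in growth and after differentiation. Per the labels and the study's methods, reads of oligo-dT selected RNA were mapped to mm9 with TopHat2 2.0.8, and the FPKM values deposited by the authors come from cuffdiff of Cufflinks 2.0.1 at default settings. How WT reads were mapped is not given in the sources used here. FPKM hold no read numbers, so depth and counting error are unknown. Isoform assignment and reads that fit several places can move single genes. The 3′-seq tables list histone genes only and were not used. ChIP-seq and amplicon data were not analysed here.

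Groups came from the labels. The sample titles name H3t, while the value columns read H3mmT. These columns were taken as H3t because every other GFP-H3 line has its own column. Genes with a mean of at least 1 FPKM (10954) were tested with limma 3.58.1 (trend and robust settings, R 4.3.3) on log2(FPKM + 1), a scale that understates changes of low genes. P-values measure the spread between lines, not between cultures of a line. The fits were checked on simulated data, where 97.5% of 200 changed genes were recovered for differentiated minus growth and 82.5% for the change between types. The simulated noise was independent, with the same SD in both states and no line effect. The ER genes had a larger spread in differentiated cells, so this check does not cover their comparisons between types. The ER genes and all lists were chosen with earlier results of these data known. From each other list, the 2 called genes with the largest change in each direction were named, and the 8 genes closest to the mean of the ER genes. Growth and differentiated libraries of a line come from the same line: their deviations from the state means correlated with r of 0.273 to 0.877, and each library correlated best with its own line in 10 of 10. Alternatives were another pseudocount, other filters, other scalings, limma without its settings, line as a block, and leaving out WT or each line. Promoter sequences are those of RefSeq (GRCm38.p6), and gene positions are from the mm9 annotation. Python 3.11.15, pandas 2.3.3, numpy 2.4.6 and matplotlib 3.10.9 were used.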

Additional observations from a re-analysis of the deposited data

Results flagged for a closer look

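In each group of 4 to 10 samples, the highest or lowest library was set against the others by Dixon's criterion, on log2(FPKM + 1). Of 40 groups tested, 3 had such a library, or 7.5%, where chance gives about 1 in 20. All 3 were the growing WT library. Pdia3 was at 8.82 there (450 FPKM), with the next line at 8.11 (274 FPKM). Pdia6 was at 8.28 (310 FPKM), with the next at 7.38 (166 FPKM). Dnajb11 was at 6.61 (96.3 FPKM), with the next at 6.05 (65.1 FPKM). WT was also highest in growth for Hspa5, Hsp90b1 and Dnajb9. The WT libraries differ from the others in further genes, some unrelated to the ER, such as Gapdh, and some of the ER. Sec61g, of the translocon list, was at 5.88 FPKM in growing WT and at 219 FPKM or more in the growing GFP-H3 lines. The part of this in the values was not tested.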

How the results depend on the processing

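Differentiated minus growth called 2 of the 10 genes, Dnajb9 and Hspa5, under every alternative tried, and 3 with Hyou1 when a line was left out (range 2 to 3, limma adjusted p of Hyou1 0.0373 to 0.0482 without H3t, H3mm16, H3mm12 or H3.1, differences 1.05 to 1.07). With line as a block the count was also 2, and the block changed no call among the 10 genes. Hyou1 then had a limma adjusted p of 0.0331, but its difference of 0.934 stayed below the fold. Over all genes it called 979 higher and 931 lower, against 972 and 921 without it. Between the types, 0 genes were called in each state and in the change under every alternative (range 0 to 0). Without the block, in a fit with an interaction term, the change called 0 as well. Signs turned only where a line was left out. For Dnajb9 between types in differentiated cells the values then ran from -0.479 to 1.107 (-0.479 without H3.1, -0.465 without H3t, -0.206 without H3.3, -0.092 without H3mm7, -0.022 without H3mm11), and for its change from -0.168 to 1.451 (-0.095 without H3.1, -0.168 without H3t). In growth they ran from -0.088 to 0.055 for Calr (0.055 without H3.1, 0.017 without H3mm13), from -0.077 to 0.012 for Pdia4 (0.012 without H3mm7, 0.003 without H3t), from -0.091 to 0.009 for Pdia6 (0.009 without H3t), from -0.13 to 0.019 for Dnajb11 (0.019 without H3.2) and from -0.185 to 0.063 for Sdf2l1 (0.063 without H3.2, 0.017 without H3.1). The cause was not tested. Over all genes, the types in differentiated cells called 0 higher and 1 lower, but 24 and 58 with the spread of 18 libraries. In growth they called 54 higher, but 114 at a pseudocount of 0.1, 10 without a filter and 18 with the shared spread. The change called 0 higher and 3 lower, but 4 and 37 without H3.2.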

Other observations

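The ERSE was held by the promoters of 37 genes. Of these, 24 were in the FPKM table and 13 had a mean of at least 1 FPKM, 4 of them among the ER genes described. The other 9 were chosen by the element alone. Syvn1, the ubiquitin ligase of ER-associated degradation, was called higher after differentiation by 1.07 (limma adjusted p = 0.0040), with 14.6 FPKM in H3t and 93.4 FPKM in H3mm7, but by 0.93 to 0.96, short of the fold, when H3mm7, H3.2 or H3.3 was left out. Dnajc3 (0.87, limma adjusted p = 0.0190), Alg12 (0.59, 0.0282), Zfp57 (0.57, 0.0401) and Canx (0.42, 0.0375) had differences below the fold used. Creld2 (0.66, 0.185), Xlr3a (0.46, 0.304), Pan2 (0.08, 0.376) and Hnrnpa3 (-0.66, 0.131) did not pass the limma test either. Zfp57, a zinc finger protein of imprinted loci, ranged from 3.95 to 24.0 FPKM in differentiated cells, and Xlr3a from 0.107 to 12.4 FPKM, so that Xlr3a passed the filter on mean FPKM through its high lines.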
